A study of Mus musculus with 24 samples.

Results

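Fc receptors for immunoglobulin G are the proteins through which immune cells bind antibody-coated particles and immune complexes. The set held 6 listed mouse genes, chosen by symbol in the platform's gene annotation: the receptor genes Fcgr1, Fcgr4, Fcgr3 and Fcgr2b, the signalling chain gene Fcer1g, and the recycling receptor gene Fcgrt. Of the 6, 5 were measured, each by 1 probe set, among 19938 genes tested. Fcgrt was matched by no single-symbol probe set in the annotation used, and it was not analysed here. The study held 24 arrays of the Affymetrix whole-transcript type, 4 for each of 6 groups. Macrophages were grown with GM-CSF from femur bone marrow of C57BL/6 mice. C57epi.1 is an epithelial line that came from C57BL/6 upper reproductive tract. The second epithelial line, Bm12.4, was made from that tissue in B6(C)-H2-Ab1bm12/KhEgJ, a strain that carries a mutant MHC class II beta chain. Each kind of cell was given an inflammatory supernatant or kept in RPMI media alone. The supernatant was T cell conditioned medium, added at 33% (v/v), from a CD4 clone that recognises Chlamydia and had been kept with infected epithelial cells, and it was brought to 4 ng/ml interferon-gamma. A response to it is therefore not a response to interferon-gamma alone, and each epithelial strain was represented by 1 line.

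Activating Fc gamma receptors signal through the ITAM of the Fc receptor gamma chain, on which the Src family kinases and Syk act to start engulfment, killing and cytokine release. Fcgr2b, the inhibitory receptor, carries an ITIM in its own tail and recruits the phosphatase SHIP, encoded by Inpp5d, which restrains that signal. Macrophages usually carry both kinds, and interferon-gamma is known to raise the high-affinity receptor encoded by Fcgr1.

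Levels are given as deposited, on the log2 scale, and a difference of 1 is a 2-fold change. The array medians, over all probe sets, lay between 5 and 5.19. For the genes tested, the median of their mean levels was 5.69. Array values within a group had correlations of 0.967 to 0.998 over all genes. Differences were tested with limma across all genes and are called at a Benjamini-Hochberg adjusted p under 0.05. The fit shares the spread of a gene over all 6 groups, so an SE in macrophages also carries the spread of the lines. The labels do not say whether the 4 arrays of a group came from separate cultures, so the p-values measure the spread between these arrays, which may be technical. These were bulk cultures, in which fewer cells of a type and less RNA per cell cannot be told apart.

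The labels were checked against marker genes. All 9 measured macrophage markers were higher in macrophages than in the lines in media. They included Csf1r, Cd68, Lyz2, Itgam and Itgax. Set against epithelial lines only, this list does not separate macrophages from other myeloid cells, such as dendritic cells. The mean level of the list was 11.45 to 11.53 on the macrophage supernatant arrays, 11.63 to 11.71 on the macrophage media arrays, and at most 4.61 on any array of the lines. Some markers of other cells were also higher in macrophages in media, where 22.4% of all genes were. These were 4 of 9 dendritic cell markers, 6 of 10 neutrophil markers and 3 of 7 T cell markers. So were 2 of 6 B cell markers, 2 of 8 mast cell and basophil markers and 1 of 7 NK cell markers. None of these lists had a marker called lower. Of 10 epithelial markers, 4 were lower and 1 higher in macrophages than in the lines in media, and 5 were not called, where 22.4% of all genes were higher and 24.7% lower. Krt19, a keratin of simple epithelium, lay at 10.69 to 12.49 on the arrays of the lines. Epcam, an epithelial adhesion molecule, reached at most 3.93 there, and Cdh1, encoding E-cadherin, at most 4.68, so these defining markers lay below the array medians in cells labelled epithelial. Cdh1 was the marker that was higher in macrophages, by 2.23 ± 0.25 in media (SE, adjusted p = 8.73e-08).

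Promoters are shown for Fcgr1, Fcgr4 and Fcgr2b, the 3 receptor genes that passed the test in macrophages, beside the motif of a myeloid factor. The windows run from 250 bases before to 50 bases after the start site in RefSeq on build GRCm38.p6, 5′ to 3′ on the gene's own strand. Fcgr1 lies at chr3:96293920-96294219 on the minus strand, Fcgr4 at chr1:171018676-171018975 on the plus strand and Fcgr2b at chr1:170976022-170976321 on the minus strand. Capitals mark matches to the core of the myeloid factor PU.1 (GAGGAA), searched on both strands. It is the motif reported here, so lower-case letters do not mean that elements of other factors are missing.
Fcgr1: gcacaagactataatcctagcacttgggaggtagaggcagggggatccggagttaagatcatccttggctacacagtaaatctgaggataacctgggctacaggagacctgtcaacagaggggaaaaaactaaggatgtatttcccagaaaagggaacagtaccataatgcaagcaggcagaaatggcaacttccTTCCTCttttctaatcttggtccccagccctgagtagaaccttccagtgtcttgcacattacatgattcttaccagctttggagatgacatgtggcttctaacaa
Fcgr4: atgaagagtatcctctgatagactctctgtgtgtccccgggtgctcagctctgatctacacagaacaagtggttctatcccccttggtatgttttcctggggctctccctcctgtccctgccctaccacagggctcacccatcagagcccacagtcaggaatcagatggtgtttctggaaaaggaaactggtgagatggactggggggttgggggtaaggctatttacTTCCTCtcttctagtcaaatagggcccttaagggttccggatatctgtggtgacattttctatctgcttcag
Fcgr2b: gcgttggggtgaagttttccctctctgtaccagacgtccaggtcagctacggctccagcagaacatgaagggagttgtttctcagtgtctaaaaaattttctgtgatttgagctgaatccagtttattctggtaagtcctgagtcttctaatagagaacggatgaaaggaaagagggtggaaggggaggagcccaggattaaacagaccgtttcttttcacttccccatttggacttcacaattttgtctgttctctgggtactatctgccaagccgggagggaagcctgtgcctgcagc
The Fcgr1 window held 1 PU.1 core on the opposite strand, starting 55 bases before the start site. Fcgr4 held 1 on the opposite strand, 22 bases before the start site, and Fcgr2b held none. Both RefSeq windows of Fcgr3, which overlap, held the same single PU.1 core, and the Fcer1g window held none. Of 32851 windows of this length in the RefSeq table, 28.3% held the PU.1 core. The matches describe letters only and were not tested as binding sites.

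In macrophages, the activating receptor genes Fcgr1 and Fcgr4 rose about 4-fold with supernatant, and the inhibitory receptor gene Fcgr2b fell 1.5-fold. Fcer1g rose by a small amount, and Fcgr3 did not pass the test. In total 4 of the 5 genes were called, 3 higher and 1 lower, where 12.45% of all genes tested were called. The median difference of the 5 was 0.34, against a median of -0.02 over all genes.

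Fcgr1 encodes the high-affinity receptor, which binds single IgG molecules. Its levels were 10.99, 10.53, 11.64 and 11.46 in macrophages with supernatant, against 8.98, 9.30, 9.33 and 8.79 in macrophages in media. Every supernatant array lay above every media array. The difference was 2.06 ± 0.18 on the log2 scale (SE, n = 4 against 4), a 4.16-fold rise with an adjusted p of 1.08e-08.

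Fcgr4 encodes an activating receptor of intermediate affinity that needs the gamma chain. It had levels of 10.19, 10.50, 11.23 and 10.73 in macrophages with supernatant, against 7.77, 8.33, 8.99 and 9.23 in macrophages in media. The groups did not overlap, but the media arrays spread widely, with an SD of 0.661. The rise was 2.08 ± 0.29 (SE, adjusted p = 1.42e-05), or 4.24-fold. Replicates 3 and 4 averaged 10.98 with supernatant and 9.11 in media, and replicates 1 and 2 averaged 10.35 with supernatant and 8.05 in media.

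Fcgr3 encodes a low-affinity activating receptor for immune complexes. In macrophages its levels were 11.58, 11.48, 11.62 and 11.35 with supernatant, against 11.55, 11.62, 11.83 and 11.76 in media. These ranges overlapped. The difference of -0.18 ± 0.23 (SE, adjusted p = 0.771) had a 95% interval of -0.67 to 0.30, which does not reach changes of the size seen for Fcgr1 and Fcgr4. The SD of Fcgr3 was 0.120 and 0.128 in the macrophage groups, against 0.305 to 0.490 in the groups of the lines. The shared SE and interval therefore largely reflect the lines.

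Fcgr2b encodes the inhibitory receptor. Levels were 10.56, 10.59, 10.31 and 10.65 in macrophages with supernatant, against 10.91, 11.06, 11.22 and 11.26 in macrophages in media. All 4 supernatant arrays lay below all media arrays. Fcgr2b fell by 0.59 on the log2 scale (SE 0.11, adjusted p = 0.00053), a 1.5-fold drop. The extracellular parts of the Fcgr2b and Fcgr3 proteins are nearly alike in mice, and whether single probes of these probe sets are shared between the genes was not analysed here.

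Fcer1g encodes the gamma chain, which the activating receptors use to reach the membrane and to signal. It had levels of 12.54, 12.65, 12.82 and 12.59 in macrophages with supernatant, against 12.38, 12.22 and 12.24 in replicates 2, 3 and 4 in media. Replicate 1 was the highest media array, and it lay 0.14 below the lowest supernatant array, so the groups did not overlap but were close. The rise was 0.34 ± 0.11 (SE, adjusted p = 0.0469), or 1.27-fold. It lost its call under 20 of the 34 other settings, among them leaving out any single macrophage array (adjusted p between 0.0517 and 0.148), and re-normalizing the arrays by quantiles (0.26, adjusted p = 0.217).

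**Figure D1:**
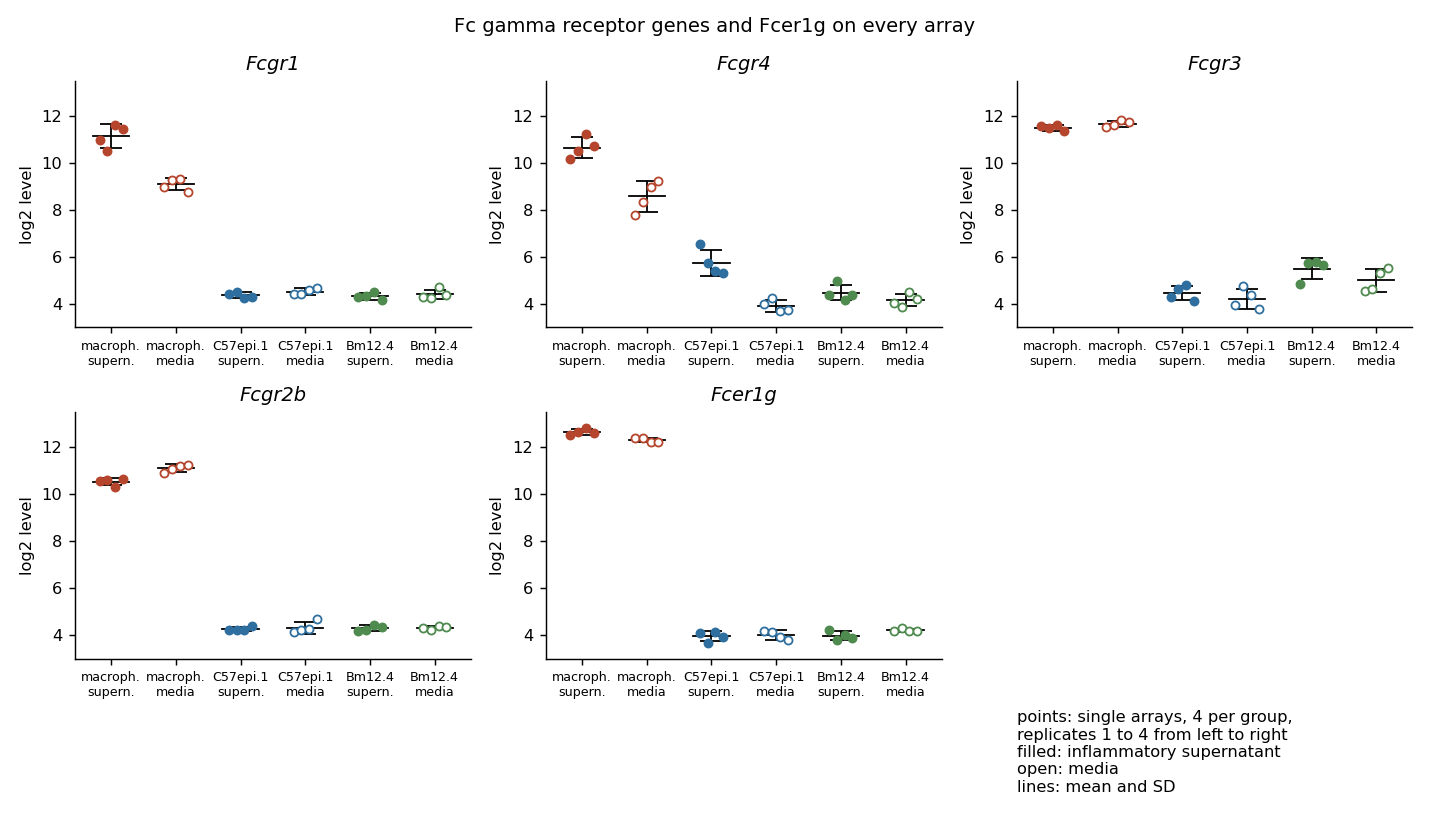
Log2 level of 5 Fc receptor genes on every array, with the mean and SD of each group of 4, filled points for supernatant and open points for media. Macrophage arrays lie well above those of both lines for each gene, and among the lines only Fcgr4 in C57epi.1 shows a called difference with supernatant.

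The activating genes were also set against Fcgr2b on the same array. The difference between 2 probe sets on an array has no meaning as a ratio of the transcripts, so only its shift between the treatments is given, as a description with no test. Relative to Fcgr2b, Fcgr1 was 2.64 higher with supernatant than in media on the log2 scale (pooled SD 0.471, n = 4 against 4). Fcgr4 shifted by 2.67 (pooled SD 0.529) and Fcer1g by 0.93 (pooled SD 0.256). For Fcgr3, which did not itself pass the test, the shift was 0.40 (pooled SD 0.186). For all 4 genes every supernatant array exceeded every media array by this measure. All 4 subtract the same Fcgr2b values, which themselves fell without overlap, so these are not separate results. Fcgr3 alone differed by -0.18, so its positive shift reflects the fall of Fcgr2b.

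**Figure D2:**
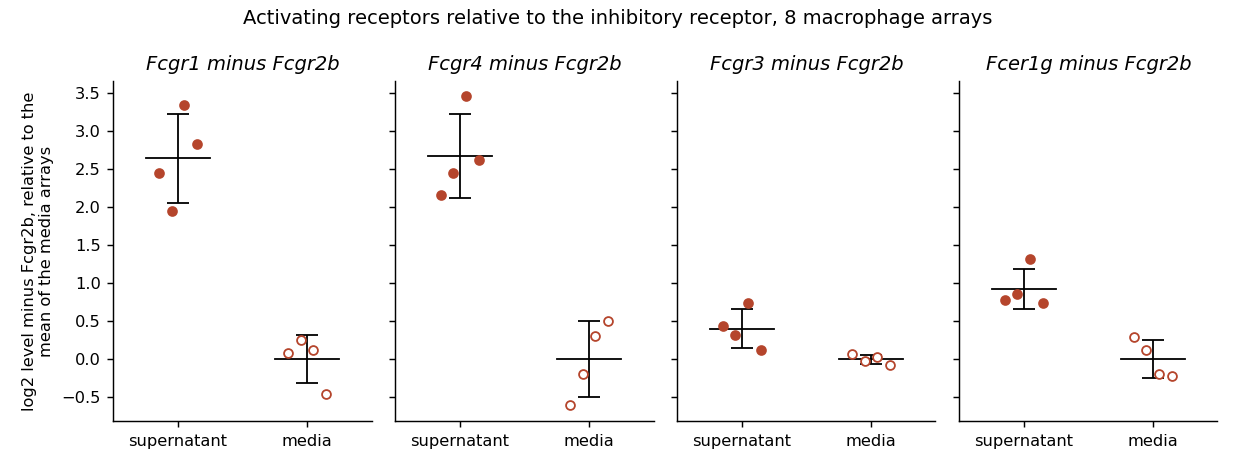
Log2 level of each activating gene minus that of Fcgr2b on the 8 macrophage arrays, set relative to the mean of the media arrays, with the mean and SD of each group of 4. The shift is 2.64 for Fcgr1 and 2.67 for Fcgr4, against 0.40 for Fcgr3 and 0.93 for Fcer1g.

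In C57epi.1 the supernatant changed 1 of the 5 genes, Fcgr4, where 19.2% of all genes were called, a share near that of the set. The levels of Fcgr4 were 6.54, 5.75, 5.39 and 5.33 in C57epi.1 with supernatant, against 3.98, 4.24, 3.70 and 3.74 in C57epi.1 in media. All supernatant arrays lay above all media arrays, with replicate 1 the highest. The rise was 1.84 ± 0.29 (SE, adjusted p = 6.93e-05), or 3.57-fold, and without that replicate it was 1.58. The media levels lay below the array medians and cannot be told from background, so this fold may be understated. Even so, every C57epi.1 supernatant array stayed below every macrophage media array for this gene. The other 4 genes differed by -0.15 (Fcgr1, adjusted p = 0.674), 0.24 (Fcgr3, 0.576), -0.07 (Fcgr2b, 0.78) and -0.06 (Fcer1g, 0.812).

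In Bm12.4 limma called 0 of the 5 genes, where 7.25% of all genes were called, and 1 gene, Fcgr3, had an unadjusted p under 0.05. Fcgr4 had levels of 4.39, 4.96, 4.19 and 4.39 in Bm12.4 with supernatant, against 4.02, 3.89, 4.50 and 4.23 in Bm12.4 in media. These ranges overlapped, and the difference was 0.32 ± 0.29 (SE, adjusted p = 0.64) with a 95% interval of -0.28 to 0.93. Fcgr3 had levels of 4.85, 5.75, 5.77 and 5.66 in Bm12.4 with supernatant, against 4.57, 4.63, 5.31 and 5.55 in Bm12.4 in media. Here 3 supernatant arrays exceeded all media arrays and replicate 1 did not, and the difference was 0.49 ± 0.23 (SE, adjusted p = 0.268). Same-numbered Bm12.4 arrays deviated together, and within these pairs Fcgr3 was higher with supernatant by 0.28, 1.12, 0.46 and 0.11, in 4 of 4. With the replicate number as a block in limma, shared by all 6 groups, the adjusted p was 0.172, which did not pass either. Such a block does not model pairs within Bm12.4 alone, so the paired difference itself was not tested. The remaining differences were -0.08 for Fcgr1 (adjusted p = 0.881), -0.02 for Fcgr2b (0.962) and -0.23 for Fcer1g (0.283).

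**Figure D3:**
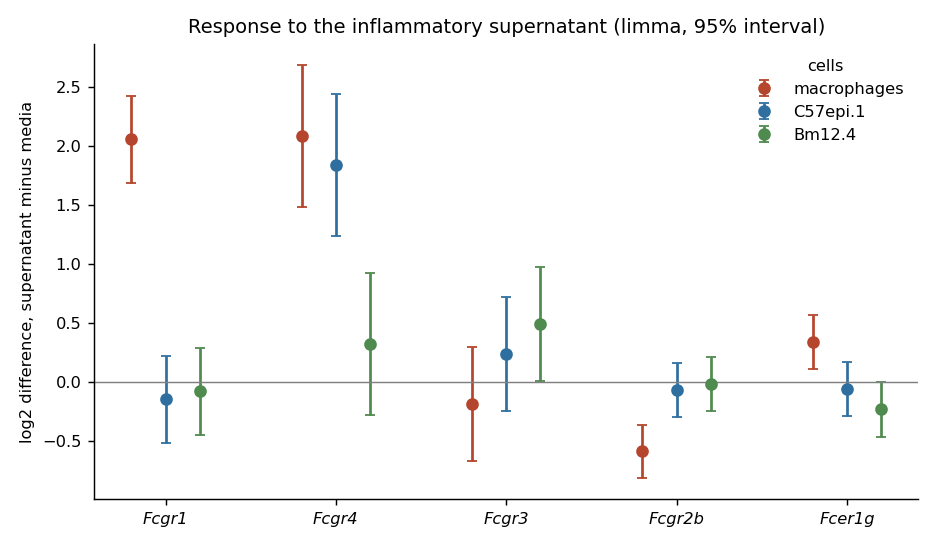
Log2 difference of supernatant minus media with its 95% interval from limma, for each gene in macrophages, C57epi.1 and Bm12.4 (n = 4 against 4 arrays each). Fcgr1 stands at 2.06 in macrophages and near 0 in both lines, whereas Fcgr4 stands at 2.08 in macrophages, 1.84 in C57epi.1 and 0.32 in Bm12.4.

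Tests of the difference in response compared the 3 kinds of cell directly. Against the mean response of both lines, 3 of the 5 genes responded differently in macrophages, where 8.08% of all genes did. The response of Fcgr1 was higher by 2.17 ± 0.22 (SE, adjusted p = 3.15e-07), and that of Fcer1g by 0.48 ± 0.14 (adjusted p = 0.0275). For Fcgr2b the response was lower, at -0.54 ± 0.13 (SE, adjusted p = 0.0112). Fcgr4 (1.00 ± 0.36, adjusted p = 0.0936) and Fcgr3 (-0.55 ± 0.29, adjusted p = 0.3) did not pass. The call of Fcer1g was lost under 7 of 34 settings, among them leaving out macrophage supernatant replicate 2 or 3, or macrophage media replicate 3 or 4, at adjusted p values of 0.0514 to 0.068. Fcgr4 gained a call without macrophage media replicate 4 (1.22, adjusted p = 0.0403) and without C57epi.1 supernatant replicate 1 (1.13, adjusted p = 0.0332), and with only replicates 3 and 4 of every group (1.09, adjusted p = 0.00191).

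Because the mean of the lines joins a called and an uncalled response of Fcgr4, macrophages were also set against each line alone, a choice made after seeing the data. Against C57epi.1, the response of Fcgr4 in macrophages was higher by 0.25 ± 0.41 (SE, adjusted p = 0.807), with a 95% interval of -0.61 to 1.10, so a difference in response was not resolved. Against Bm12.4, it was higher by 1.76 ± 0.41 (SE, adjusted p = 0.0097), with adjusted p between 0.00381 and 0.0248 when single arrays were left out. In the first of these comparisons 2 of the 5 genes were called, Fcgr1 and Fcgr2b, where 9.93% of all genes were called. In the second 4 of 5 were called, all but Fcgr3, where 5.64% of all genes were. Both share the macrophage arrays.

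Between the lines, 1 of the 5 genes responded differently, where 4.03% of all genes did. The response of Fcgr4 was higher in C57epi.1 than in Bm12.4 by 1.52 ± 0.41 (SE, adjusted p = 0.0384). The size held but the call did not: leaving out any one of 10 of the 16 arrays of the lines gave an adjusted p of 0.051 to 0.0831, with differences of 1.25 to 1.67 over all arrays left out. Strain, line and clone cannot be told apart here.

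Macrophages were set against both lines in each treatment. In media, 5 of 5 genes were higher in macrophages, where 47.1% of all genes differed, with a median difference of 6.80 for the genes of the set and -0.01 for all genes. With supernatant, 5 of 5 were again higher, where 48.7% of all genes differed, with medians of 6.53 and 0.03. Fcer1g was higher by 8.21 ± 0.10 in media (SE, adjusted p = 7.43e-26) and by 8.69 ± 0.10 with supernatant (adjusted p = 2.58e-26).

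Among the receptors, the gap between macrophages and the lines changed with treatment by a called amount for Fcgr1 and Fcgr2b, by the test of responses above, and not for Fcgr4 or Fcgr3. Fcgr1 was higher in macrophages by 4.63 ± 0.15 in media (SE, adjusted p = 1.5e-17) and by 6.80 ± 0.15 with supernatant (adjusted p = 9.51e-21). Fcgr4 was higher by 4.54 ± 0.25 in media (adjusted p = 2.74e-13) and by 5.55 ± 0.25 with supernatant (adjusted p = 6.34e-15). Fcgr2b was higher by 6.80 ± 0.10 in media (adjusted p = 1.33e-24) and 6.25 ± 0.10 with supernatant (adjusted p = 5.12e-24). Fcgr3 was higher by 7.07 ± 0.20 in media (adjusted p = 8.48e-19) and by 6.53 ± 0.20 with supernatant (adjusted p = 3.96e-18).

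On the 16 arrays of the lines, Fcgr1 lay at 4.15 to 4.71, Fcgr2b at 4.11 to 4.69 and Fcer1g at 3.67 to 4.29. Fcgr4 lay at 3.70 to 4.24 in C57epi.1 in media, at 4.19 to 4.96 in Bm12.4 with supernatant and at 3.89 to 4.50 in Bm12.4 in media. In C57epi.1, Fcgr3 lay at 4.13 to 4.79 with supernatant and at 3.79 to 4.75 in media. These levels were below the array medians of all probe sets. No detection p-value was used, so for these genes a low level in the lines cannot be told from background. Differences from the macrophages may therefore be larger than given, and the response of Fcgr4 in C57epi.1, with each comparison made against it, has the same limit. The differences of Fcgr3 between the lines share this limit, since its C57epi.1 levels were low.

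Ordered by level, each gene gave macrophages first, and for Fcgr1, Fcgr4 and Fcer1g the macrophages with supernatant came before those in media. For Fcgr4 the next group was C57epi.1 with supernatant (5.75 ± 0.56, SD, n = 4), followed by Bm12.4 with supernatant (4.48 ± 0.33), Bm12.4 in media (4.16 ± 0.27) and C57epi.1 in media (3.92 ± 0.25). The difference between neighbours among the last 3 did not pass the test. For Fcgr3 both macrophage groups (11.51 ± 0.12 with supernatant and 11.69 ± 0.13 in media) were followed by Bm12.4 with supernatant (5.51 ± 0.44), Bm12.4 in media (5.02 ± 0.49), C57epi.1 with supernatant (4.46 ± 0.31) and C57epi.1 in media (4.22 ± 0.43). Within each kind of cell, no difference in Fcgr3 between treatments passed the test. For Fcgr1, Fcgr2b and Fcer1g no comparison between groups of the lines passed the test.

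C57epi.1 and Bm12.4 differed in 2 of the receptors. In media 1 of 5 genes was called, where 24.4% of all genes were, and with supernatant 2 of 5, where 29.9% were. Both counts lie near the share of all genes. Fcgr3 had levels of 4.28, 4.63, 4.79 and 4.13 in C57epi.1 with supernatant, all below the 4.85 to 5.77 of Bm12.4 with supernatant, and the difference was -1.05 ± 0.23 (SE, adjusted p = 0.00106). In media its levels were 3.95, 4.75, 4.38 and 3.79 in C57epi.1, against 4.57, 4.63, 5.31 and 5.55 in Bm12.4. These overlapped in 1 array of C57epi.1, and the difference was -0.80 ± 0.23 (SE, adjusted p = 0.0131). That call was lost without C57epi.1 media replicate 4 (-0.66, adjusted p = 0.0584) or Bm12.4 media replicate 4 (-0.62, adjusted p = 0.066). Fcgr4 was higher in C57epi.1 than in Bm12.4 with supernatant by 1.27 ± 0.29 (SE, adjusted p = 0.00144), without overlap.

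Genes that work with these receptors were counted in lists by role, in which the receptors themselves were not included. In macrophages the share of a list that was called ran from 12.5% for the engulfment genes to 40% for the adaptors, against 12.45% of all genes, of which 6.13% rose and 6.31% fell. The lists are short and were not tested as groups, so their counts are descriptions. Among 11 transcription factors known to act on Fc receptor genes, 3 rose and 1 fell, and 7 were not called, with a median of 0.21. Irf1, an interferon-induced factor, rose by 3.87 ± 0.17 (SE, adjusted p = 9.8e-14), and Irf8, a myeloid factor, by 1.47 ± 0.15 (adjusted p = 1.61e-07). Spi1, which encodes PU.1, rose by 0.43 ± 0.10 (adjusted p = 0.00576), and Cebpa, a factor of myeloid differentiation, fell by 1.05 (SE 0.11, adjusted p = 3.78e-07).

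Of 14 genes of inhibitory Fc receptor signalling, 3 rose and the other 11 were not called, with a median of 0.12. Ptpn6, which encodes the phosphatase SHP-1, rose by 1.26 ± 0.18 (SE, adjusted p = 2e-05). Dok1, an inhibitory adaptor, rose by 0.81 ± 0.09 (adjusted p = 7.17e-07), and Lilrb4a, an ITIM receptor, by 0.49 ± 0.13 (adjusted p = 0.00901). The 3 called genes are 21.4% of this list.

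Of 22 genes of activating signalling, 2 rose, 2 fell and 18 were not called, with a median of 0.10. Lcp2, an adaptor downstream of Syk, rose by 0.68 ± 0.11 (SE, adjusted p = 7.56e-05), while Vav2, a guanine nucleotide exchange factor, fell by 1.02 (SE 0.13, adjusted p = 2.72e-06) and Pik3r5, a regulatory subunit of PI3 kinase, by 0.55 (SE 0.11, adjusted p = 0.00132). For Syk, the kinase that the gamma chain recruits, the difference was -0.18 ± 0.10 (adjusted p = 0.302).

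Of 10 ITAM adaptors and receptors that pair with them, 3 rose and 1 fell. Clec4e, the C-type lectin Mincle that signals through the gamma chain, rose by 2.27 ± 0.18 (SE, adjusted p = 3.4e-09), and Tarm1, another partner of the gamma chain, by 1.69 ± 0.15 (adjusted p = 1.06e-08). Trem1, which signals through the adaptor encoded by Tyrobp, rose by 0.63 ± 0.17 (adjusted p = 0.0123). The median of this list was -0.04.

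Among 13 other Fc receptor genes 1 rose and 2 fell, with a median of 0.01. Trim21, the cytosolic antibody receptor, rose by 1.92 ± 0.27 (SE, adjusted p = 1.31e-05). Fcrls fell by 1.61 (SE 0.17, adjusted p = 2.73e-07) and Fcrlb by 0.44 (SE 0.11, adjusted p = 0.00986). Of 16 engulfment genes 1 rose (Arpc2, 0.24 ± 0.07, adjusted p = 0.0175) and 1 fell (Dock2, by 1.21, SE 0.40, adjusted p = 0.0494), and of 11 genes of the FcRn partner and recycling list 2 fell, Rab11fip5 and Rab4a. Dock2, a guanine nucleotide exchange factor, had levels of 7.84, 7.53, 10.21 and 10.07 with supernatant, against 10.34, 10.21, 10.11 and 9.83 in media. Replicates 1 and 2 with supernatant were low and the other two lay among the media arrays, and without replicate 2 the difference was -0.75 (adjusted p = 0.233). Of 31 list and marker genes called in macrophages, 9 lost their call without some single macrophage array, a setting chosen after seeing the data, among them Dock2, Arpc2, Rab11fip5, Rab4a and Trem1.

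**Figure D4:**
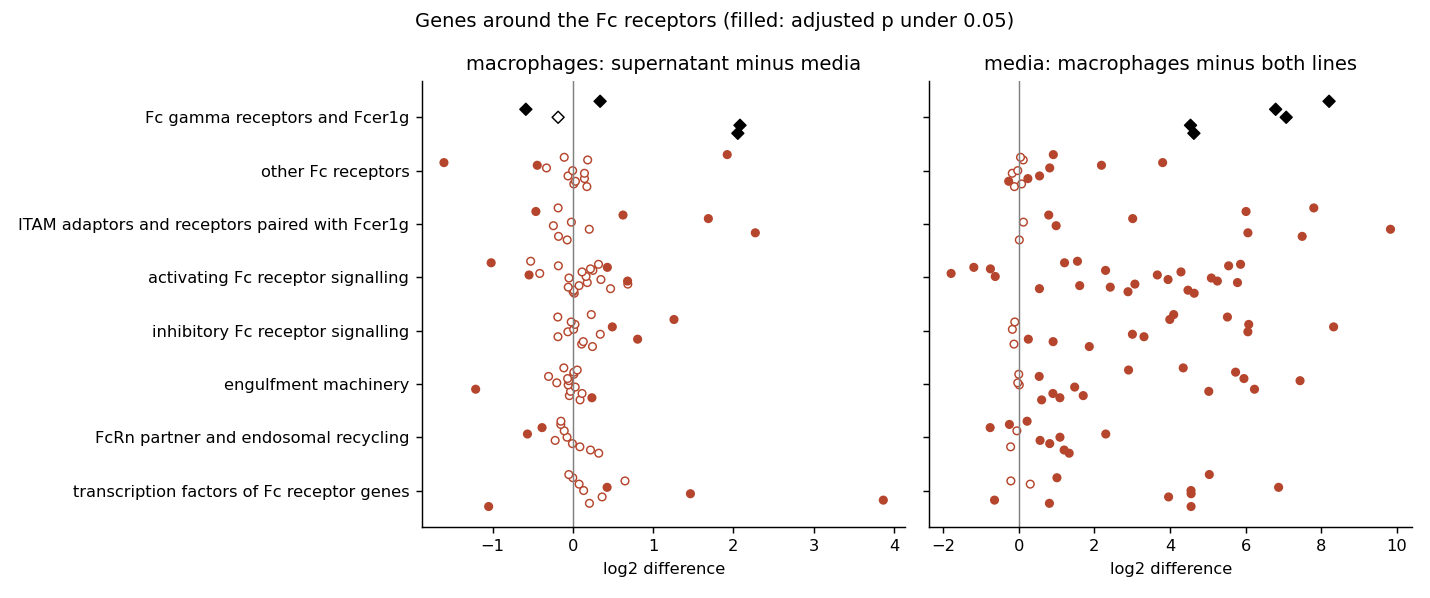
Log2 difference of each Fc receptor gene (diamonds) and of each measured gene of 7 lists by role (circles), filled where the adjusted p was under 0.05, for macrophages with supernatant minus media (left) and for macrophages minus both lines in media (right). On the left most circles lie near 0, with Irf1 at 3.87, and on the right the lists of adaptors, signalling and transcription factors lie mostly above 0.

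In C57epi.1, Trim21 was the 1 of 13 other Fc receptor genes called with supernatant, where 19.2% of all genes were called. It rose by 3.37 ± 0.27 (SE, adjusted p = 2.7e-09). In Bm12.4 it rose by 2.99 ± 0.27 (adjusted p = 2.43e-08). Irf1 rose by 3.55 ± 0.17 in C57epi.1 (adjusted p = 3.54e-13) and by 2.41 ± 0.17 in Bm12.4 (adjusted p = 4.69e-10), so both lines responded to the supernatant where Fcgr1 did not pass the test. Spib, a relative of PU.1, rose by 0.70 ± 0.16 in C57epi.1 (adjusted p = 0.00329) and by 1.24 ± 0.16 in Bm12.4 (adjusted p = 1.11e-05). B2m, the light chain that the FcRn protein needs, rose by 1.37 ± 0.14 in C57epi.1 (adjusted p = 1.04e-07) and by 1.20 ± 0.14 in Bm12.4 (adjusted p = 1.12e-06).

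Most genes downstream of the receptors were higher in macrophages than in the lines. In media, 18 of 22 activating signalling genes were higher in macrophages and 4 lower, where 22.4% of all genes were higher and 24.7% lower, with a median difference of 2.98. Syk was higher by 5.55 ± 0.08 (SE, adjusted p = 5.22e-24), and Plcg1, a phospholipase, was lower by -1.79 ± 0.14 (adjusted p = 2.3e-10). Of the 10 adaptors and paired receptors 8 were higher, with Tyrobp at 7.80 ± 0.11 (adjusted p = 1.64e-24), and of 14 inhibitory genes 11 were higher, with Inpp5d at 6.06 ± 0.08 (adjusted p = 2.52e-25). Spi1 was higher in macrophages by 6.87 ± 0.09 (adjusted p = 4.35e-25).

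Markers of macrophages and of other cells were followed beside the macrophage response, where 12.45% of all genes were called. Lists with 1 gene called had shares of 10% to 16.7%, near that of all genes. The dendritic cell list had 44.4% called and the NK cell list 0%. Of 9 macrophage markers 1 fell, Adgre1, by 0.41 (SE 0.13, adjusted p = 0.0333), and none of the other 8 was called, though 4 of the 9 had an unadjusted p under 0.05. Without supernatant replicate 1 the difference of Adgre1 was -0.27 (adjusted p = 0.169). Itgam, an integrin subunit, lay at 12.23 to 12.32 with supernatant, above all media arrays at 12.07 to 12.18. Among 9 dendritic cell markers 2 rose and 2 fell, with Ccr7 higher by 1.40 ± 0.29 (SE, adjusted p = 0.00132) and Clec9a, a receptor of cross-presenting cells, lower by -0.77 ± 0.15 (adjusted p = 0.000611). The mean level of that list was 5.40 to 5.68 on supernatant arrays and 5.25 to 5.66 on media arrays. Of 10 neutrophil markers Ly6g rose by 1.55 ± 0.19 (adjusted p = 2.01e-06), with list means of 5.11 to 5.70 with supernatant and 5.02 to 5.31 in media. Supernatant replicate 3 was the highest of its group for Ly6g (5.59), Ngp (4.08, others 3.08 to 3.30), S100a8 (6.39, others 4.99 to 5.67) and S100a9 (7.04, others 4.31 to 5.27). For some other neutrophil markers this array was not the highest. It was the lowest of its group for Elane (3.92, others 4.06 to 4.92) and Camp (4.40, others 4.41 to 4.79). For Ltf it lay below replicate 2 (3.79 against 3.81). For Csf3r it lay below replicate 4 (6.07 against 6.17) and above replicates 1 and 2 (5.55 and 5.75). These levels of Elane, Camp, Ltf and Ngp were all below the array medians of 5 to 5.19, where their order cannot be told from background. Supernatant replicate 3 was also the highest of its group for Fcgr1, Fcgr4, Fcgr3 and Fcer1g and the lowest for Fcgr2b. Without it Fcgr1 and Fcgr4 each rose by 1.89 (adjusted p = 4.81e-08 and 0.00011), Fcgr2b fell by 0.51 (adjusted p = 0.00325), and Fcer1g was not called (0.28, adjusted p = 0.148). Of 6 B cell markers Cd22, an inhibitory receptor of B cells, fell by 0.46 (SE 0.11, adjusted p = 0.00512), with list means of 4.48 to 4.90 with supernatant and 4.62 to 4.78 in media. Of 8 mast cell and basophil markers Cpa3, a mast cell protease, rose by 0.35 ± 0.11 (SE, adjusted p = 0.0399), with list means of at least 4.07 with supernatant and at most 4.05 in media. That call was lost without any one of 5 of the 8 macrophage arrays. Of 7 NK cell markers limma called 0, and 1 had an unadjusted p under 0.05. T cell markers, of interest because the supernatant came from a T cell clone, had list means of 4.14 to 4.24 with supernatant and 4.34 to 4.56 in media, and Cd28 was the 1 of 7 that was called, lower by -1.66 ± 0.17 (adjusted p = 1.35e-07). Cpa3 reached at most 4.29 on macrophage arrays, Ly6g at most 3.51 in media and Cd28 at most 4.59 with supernatant. These levels lay below the array medians of 5 to 5.19 and cannot be told from background. The part of cells of other types in the receptor differences was not tested.

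The genes most like each receptor were found by Pearson's r over the 24 arrays. Genes of the set, and genes with predicted, Riken or similar provisional names, were passed over, also in the counts given here. These arrays fall into macrophages and lines, so this r orders genes by likeness over all 6 groups and says little within either kind. For Fcgr1 they were Pde7b (0.9965), Themis2 (0.9954) and Cd180 (0.9947), and for Fcgr4 they were Treml2 (0.9773), Epsti1 (0.9761) and H2-M2 (0.976). Fcgr2b was most like Trem2 (0.9987), Clec4d (0.9985) and Arhgap25 (0.9984). Fcgr3 was most like Sgpl1 (0.9942), Emb (0.9935) and Cd33 (0.9934), and Fcer1g most like Srgn (0.9993), Lilr4b (0.999) and Clec4n (0.999). An r over 0.95 was reached by 91 genes for Fcgr4, against 533 to 764 for the other 4. Among the receptors themselves r ran between 0.916, for Fcgr4 with Fcgr2b, and 0.994, for Fcgr2b with Fcer1g.

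In the RefSeq gene table Fcgr2b, Fcgr4, Fcgr3 and Fcer1g lie on chromosome 1, and Fcgr1 on chromosome 3. The nearest measured genes on either side that are not receptors of the set numbered 7. By limma 0 of the 7 were called in macrophages with supernatant, where 12.45% of all genes were, and 1 had an unadjusted p under 0.05. Gm10522, the nearest measured gene to both Fcgr2b and Fcgr4, differed by -0.17 ± 0.11 (SE, adjusted p = 0.427). In media 5 of the 7 differed between macrophages and the lines, where 47.1% of all genes did, and neither count was tested. Of these, Adamts4, next to Fcer1g, was lower in macrophages by -2.16 ± 0.28 (adjusted p = 4.95e-07).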

How the data were processed

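GCOS, Partek 6.2 and RMA are the tools named in the submitters' processing notes, and per the labels' protocols 100 ng of total RNA was labelled with biotin for each. The deposited values are log2 levels, 1 per probe set and array, for 28853 probe sets. RMA aligns the distributions of the arrays, which can shrink differences shared by many genes. The build is not given in the sources used here.

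Of the probe sets, 21789 had 1 symbol in the platform annotation, 1621 had several and 5443 had none. Only the first kind was used, and for 999 symbols with more than 1 probe set that of the highest mean, which left 19938 genes. None matched Fcgrt. The fit was a mean per group over all 24 arrays in limma 3.58.1 (R 4.3.3, lmFit and eBayes, 18 residual and 3.62 prior degrees of freedom), with 9 comparisons, two-sided p-values and Benjamini-Hochberg adjustment over all genes. The fit was also run on simulated arrays drawn independently of each other, with an outcome not reported here. Such arrays lack the shared deviations of same-numbered Bm12.4 arrays, so that run does not bear on them. The number of arrays, 4 per group, limits the precision.

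The receptor genes, the role and marker lists and the tests were chosen with earlier results of these data known. From each list the genes named are the 3 called ones of largest difference in a comparison. Spi1 and Syk in the macrophage response, Plcg1 and the single marker genes were named after their values were seen. Promoters came from RefSeq on GRCm38.p6 and matched all 5 measured genes. A planned search of protein motifs was not run, as protein sequences were not used here, and other planned promoter motifs are not reported here.

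Replicate numbers were checked as pairs by correlating the deviations of same-numbered supernatant and media arrays from their group means. The correlations were 0.226 to 0.683 in Bm12.4, where every array matched best with its own number. They ran from -0.134 to 0.118 in macrophages and from -0.143 to 0.396 in C57epi.1. In C57epi.1, supernatant replicates 3 and 4 matched best with their own number and replicates 1 and 2 did not. In macrophages only replicate 1 did. Pairing by number was therefore not resolved in these cells.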

Additional observations from a re-analysis of the deposited data

Results flagged for a closer look

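In Bm12.4 with supernatant, the level of Fcgr3 in replicate 1 was 4.85, apart from the levels of 5.66 to 5.77 of the other 3 arrays. It was the only one of 30 sets of 4 arrays whose most distant array passed Dixon's 95% critical value, and chance alone marks about 1 set in 20.

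The responses of 3 genes to the supernatant differed between macrophages and both lines by a test of the difference itself: Fcgr1 by 2.17, Fcer1g by 0.48 and Fcgr2b by -0.54 on the log2 scale. The response of Fcgr4 differed between C57epi.1 and Bm12.4 by 1.52. No explanation of these differences was tested.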

How the results depend on the processing

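Over 45 gene results and 34 other settings each, 1482 of 1530 values kept their direction and their side of the threshold, and no called value changed sign. In macrophages Fcgr1 (1.62 to 2.49), Fcgr4 (1.81 to 2.30) and Fcgr2b (-0.76 to -0.41) kept their calls under all 34 settings, as did Fcgr4 in C57epi.1 (1.58 to 2.04). With only replicates 1 and 2 of every group, the number of the 5 genes called was 0 for C57epi.1 against Bm12.4 in media, 1 for the response of macrophages against both lines and 0 for the response of C57epi.1 against Bm12.4. With only replicates 3 and 4, 2 were called for C57epi.1 against Bm12.4 in media, Fcgr3 and Fcgr4, and with only the arrays of the groups compared 0 were. Leaving out single arrays gave 0 to 1 called for C57epi.1 against Bm12.4 in media and 0 to 1 for the response of C57epi.1 against Bm12.4. The shift of Fcgr1 relative to Fcgr2b was 2.03 with replicates 1 and 2 and 3.25 with replicates 3 and 4, and that of Fcer1g 0.62 and 1.24. Fewer arrays were fitted in these settings, and the cause was not tested otherwise.

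Fcer1g in macrophages also lost its call under median centring (0.38, adjusted p = 0.0664), with trend and robust options (0.34, 0.0694) and without any of 8 single arrays of the lines. Array weights gave Fcgr3 a call in the response of macrophages against both lines (-0.72, adjusted p = 0.0468), in an estimate that stopped before convergence. With the replicate number as a block, the counts of genes called were 4 of 5 in macrophages, 1 in C57epi.1 and 0 in Bm12.4, and the block changed no call. Levels near 4 in the lines may be background, which limits differences there.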
